A study of Mus musculus with 4 samples.

Results

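The 10 genes described here are cytokines and receptor chains of the IL-6 and IL-1 families: the ligands Il6, Il11 and Lif with the receptor chains Il6st, Osmr and Lifr, and the ligands Il1a, Il1b and Il33 with the receptor Il1r1. They were taken by name, and every probe of the array that targets a RefSeq transcript of one of them was used, which gave 16 probes for 10 of the 17466 genes named on the array. Expression was measured in mouse embryonic fibroblasts, connective tissue cells cultured from embryos, at passage 7, when the cultures entered replicative senescence, and at passage 2, while the cells were growing. Both passages were kept in the same serum-containing medium, and the labels give no treatment, strain or genotype for either. Each passage was read on 2 one-colour arrays. RNA of 3 independent cultures was pooled, per the labels, so the 2 arrays of a passage may be technical repeats, in which case the p-values cover array-to-array spread alone. All 4 arrays lay on 1 slide, and slide position and passage cannot be told apart.

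IL-6 family cytokines signal through receptor complexes that share the gp130 chain, encoded by Il6st. IL-6 and IL-11 first bind a receptor chain of their own, LIF pairs gp130 with LIFR, and oncostatin M pairs it with OSMR, after which JAK kinases phosphorylate STAT3. IL-1α and IL-1β bind IL1R1 together with its accessory chain, IL-33 binds another receptor of the same family (ST2, encoded by Il1rl1), and these receptors signal to NF-κB and AP-1 through MyD88 and IRAK kinases. In fibroblasts IL-6 family genes are known targets of NF-κB, AP-1 and C/EBP factors, and IL-1α, IL-6 and related cytokines are known parts of the secretory phenotype of senescent cells.

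Of the 10 genes, 2 rose at passage 7, 3 fell, 4 did not pass the test and 1 was not tested because it was not well above background on any array. The genes that rose were the ligands Lif and Il11, both about 2-fold. Those that fell were the IL-1 receptor Il1r1, the alarmin Il33 and the LIF receptor chain Lifr. The limits for a call were an adjusted p under 0.05 (limma, Benjamini-Hochberg over all genes) together with a difference of at least 2-fold. Among all 13850 genes tested, 9.99% rose and 9.42% fell, so that 2 rises and 3 falls among 9 tested genes stand beside a background in which about 1 gene in 5 was called. The median log2 change of the 9 tested genes was -0.57, against 0.20 over all genes tested. The passages did not overlap, array by array, for 7 of the 9 genes, and the same held for 68.4% of all genes with a value on every array.

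**Figure D1:**
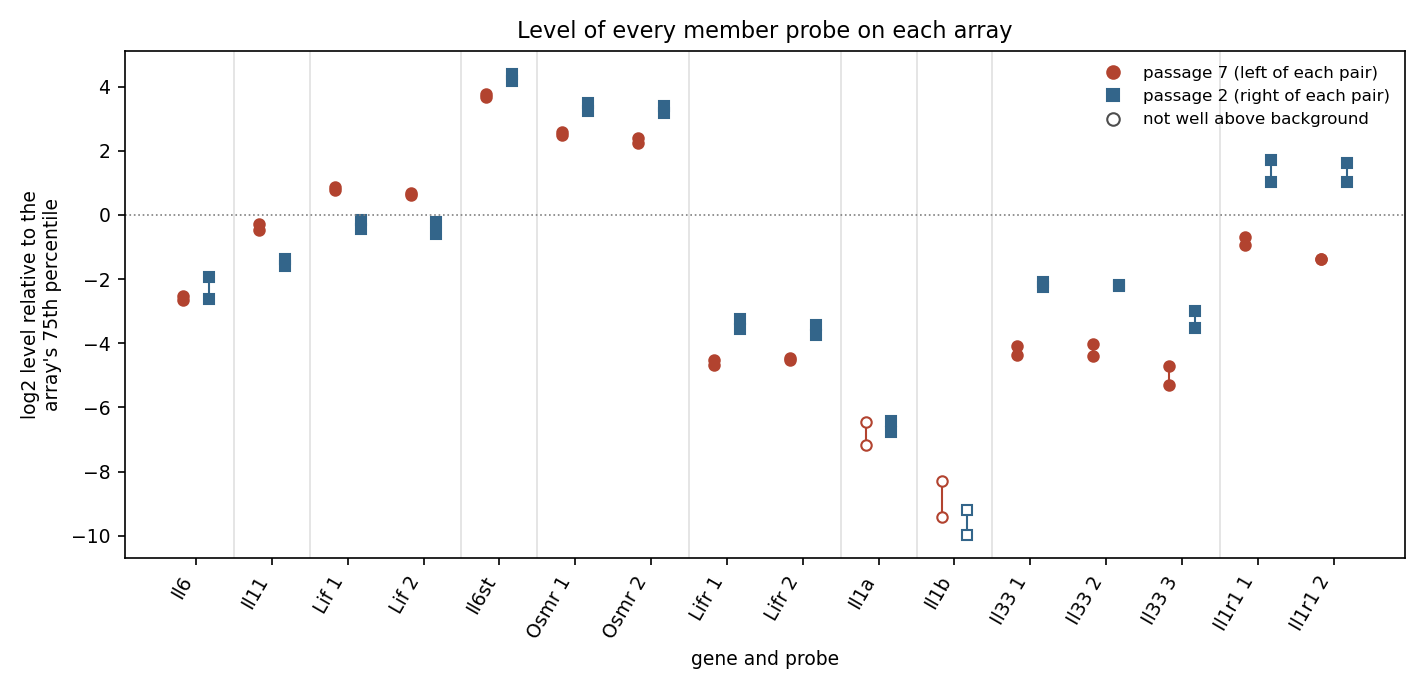
Log2 level of every probe of the 10 genes on each array, relative to that array's 75th percentile, with the passage 7 arrays (circles) left of the passage 2 arrays (squares) and open symbols where the spot was not well above background. Both Lif probes and the Il11 probe lie higher at passage 7, all probes of Il6st, Osmr, Lifr, Il33 and Il1r1 lie lower, and the Il6 and Il1a arrays overlap; heights of different probes are not comparable.

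The promoter windows printed here are those of the called genes Il11, Lif, Il33 and Il1r1, and of Il6, which was not called. Lifr, which fell, is left out, as are Osmr and Il1a, whose windows also hold an AP-1 motif. The windows of Il6, Il11, Lif, Il33 and Il1r1 are shown first, because motifs for the factors named above can be read in them. They run from 250 bases before to 50 bases after a transcription start in RefSeq's GRCm38.p6 annotation and are written 5′ to 3′ on the gene's strand. Capitals mark matches, on either strand, to the NF-κB motif, the AP-1 motif TGANTCA, the CRE TGACGTCA, the C/EBP motif TTGCNNAA, the STAT motif TTCNNNGAA or the TATA motif TATAAA. Il6 lies at chr5:30012864-30013163 (plus strand), Il11 at chr7:4778092-4778391 (minus strand, the downstream of its 2 starts), Lif at chr11:4257318-4257617 (plus strand), Il33 at chr19:29945540-29945839 (plus strand, the downstream of 2 starts) and Il1r1 at chr1:40224830-40225129 (plus strand, the upstream of 2 starts).
Il6: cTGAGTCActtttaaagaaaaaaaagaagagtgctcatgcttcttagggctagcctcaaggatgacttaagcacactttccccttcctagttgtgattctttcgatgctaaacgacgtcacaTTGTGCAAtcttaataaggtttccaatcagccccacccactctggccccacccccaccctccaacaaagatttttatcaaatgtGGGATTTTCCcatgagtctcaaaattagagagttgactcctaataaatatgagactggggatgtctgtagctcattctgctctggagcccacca
Il11: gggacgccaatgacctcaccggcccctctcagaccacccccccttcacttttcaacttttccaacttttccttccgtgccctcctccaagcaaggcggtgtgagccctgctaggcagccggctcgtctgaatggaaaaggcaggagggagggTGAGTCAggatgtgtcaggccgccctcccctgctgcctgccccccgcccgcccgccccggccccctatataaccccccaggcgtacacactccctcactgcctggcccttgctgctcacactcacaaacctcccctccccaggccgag
Lif: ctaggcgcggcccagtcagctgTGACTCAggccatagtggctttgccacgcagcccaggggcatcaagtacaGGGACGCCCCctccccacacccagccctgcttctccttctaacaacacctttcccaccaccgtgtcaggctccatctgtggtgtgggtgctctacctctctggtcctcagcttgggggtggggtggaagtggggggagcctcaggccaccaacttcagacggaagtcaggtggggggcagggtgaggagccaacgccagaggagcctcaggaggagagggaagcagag
Il33: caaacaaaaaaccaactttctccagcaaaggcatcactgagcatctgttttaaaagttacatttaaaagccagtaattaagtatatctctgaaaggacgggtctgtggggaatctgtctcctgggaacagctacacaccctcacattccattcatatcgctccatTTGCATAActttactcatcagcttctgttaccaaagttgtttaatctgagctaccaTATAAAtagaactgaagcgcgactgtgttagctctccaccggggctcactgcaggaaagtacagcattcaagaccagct
Il1r1: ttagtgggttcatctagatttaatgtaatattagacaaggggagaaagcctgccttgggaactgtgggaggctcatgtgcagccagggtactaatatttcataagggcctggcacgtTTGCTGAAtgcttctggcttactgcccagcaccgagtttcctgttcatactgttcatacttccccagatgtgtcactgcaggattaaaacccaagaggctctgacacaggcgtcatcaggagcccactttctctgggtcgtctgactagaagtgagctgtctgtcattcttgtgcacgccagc
Each of the 3 IL-6 family ligands has an AP-1 motif in the window shown, while the upstream window of Il11, not shown, holds none of the 6 motifs. The windows of Lifr, also not shown, hold none of the 6 motifs either. The AP-1 motif lies 249 to 243 bases before the start in Il6, 98 to 92 bases before it in Il11, and 228 to 222 bases before it in Lif. The NF-κB motif is found 44 to 35 bases before the Il6 start and 178 to 169 bases before the Lif start, and the Il6 window also holds a C/EBP motif. In Il33 the window shown has a C/EBP motif and a TATA motif 29 to 24 bases before the start, and that of Il1r1 has a C/EBP motif, while the window of the downstream Il1r1 start, not shown, has an NF-κB motif. Counting genes with a match in any of their windows, AP-1 was found in 5 of 10 (with Osmr and Il1a). NF-κB was found in 3, C/EBP in 3 and TATA in 3, and neither a CRE nor the STAT motif in any. Counted by window, as the background is, AP-1 was found in 5 of 14, NF-κB in 3, C/EBP in 3 and TATA in 4. Of all 32851 windows of the same length, 7.81% held the AP-1 motif, 8.46% the NF-κB motif, 10.8% the C/EBP motif, 13.6% the TATA motif, 8.3% the STAT motif and 1.79% the CRE. These matches describe letters in a window, and no binding was measured.

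Lif, whose product signals through LIFR and gp130, rose at passage 7. Levels are given as a percentage of the 75th percentile of all signals on the same array. The main Lif probe read 170% and 182% on the passage 7 arrays, against 74.5% and 90.5% on the passage 2 arrays. Both passage 7 values lay above both passage 2 values. The log2 change was 1.099 ± 0.197 (SE, n = 2 arrays per passage), or 2.14-fold, with an adjusted p of 0.0227. A second Lif probe gave 154% and 161% at passage 7 and 65.8% and 85.3% at passage 2, again without overlap and with a log2 change of 1.08.

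Il11, a cytokine of stromal cells that acts through IL-11 receptor alpha and gp130, rose by a like amount. Its single probe read 82.4% and 72.1% at passage 7, against 38.6% and 33.2% at passage 2. The 2 passages did not overlap. The log2 change was 1.11 ± 0.196 (SE), or 2.15-fold, at an adjusted p of 0.0223. Rises larger than that of Il11 were found for 10.6% of all genes tested, and for Lif this share was 10.8%. Both rises lie close to the 2-fold limit and are not called under median scaling, where they were 0.93 for Lif and 0.94 for Il11, or in the authors' deposited value table, where they were 0.90 and 0.87. Left out in turn, the first passage 7 array took both calls (Lif 1.15, adjusted p = 0.0992, Il11 1.01, adjusted p = 0.127), as did the second (Lif 1.05, adjusted p = 0.142, Il11 1.20, adjusted p = 0.0992). The call of Lif was also lost without the first passage 2 array (0.96) and that of Il11 without the second (0.996, adjusted p = 0.0596).

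Il6, the cytokine that gives the family its name, did not pass the test. The probe read 15.8% and 17.4% at passage 7, against 26.4% and 16.1% at passage 2, so that the passages overlapped and the spread came mostly from the passage 2 arrays. The log2 change was -0.32 ± 0.293 (SE), with a 95% interval from -1.09 to 0.45 and an adjusted p of 0.458. In the main fit the interval includes a fall of 2-fold but not a rise of 2-fold, and it rests on 2 arrays per passage. Without the first passage 2 array the change was 0.04, so that 1 array decides its sign. With the normexp background correction the change was 0.62 ± 0.806 (SE, adjusted p = 0.73), so that a rise of 2-fold is not excluded.

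The shared chain gp130 (Il6st) did not pass the test. Its probe read 1290% and 1360% at passage 7, against 1820% and 2110% at passage 2, without overlap. The log2 change of -0.57 ± 0.187 (SE) had an adjusted p of 0.0886 and a 95% interval from -1.06 to -0.08. It passed both limits with quantile normalization (-1.03, adjusted p = 0.0323) and in the authors' deposited value table (-1.05, adjusted p = 0.00618).

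For Osmr, the oncostatin M receptor chain, the change passed the p limit and missed the fold limit. The main probe read 565% and 605% at passage 7, against 951% and 1130% at passage 2, and the other read 469% and 530% at passage 7, against 895% and 1050% at passage 2. Neither probe overlapped between passages. The log2 change of the main probe was -0.83 ± 0.193 (SE), or 1.78-fold lower, at an adjusted p of 0.0409, and that of the other was -0.96. With quantile normalization the change was -1.13 (adjusted p = 0.0213) and Osmr was called.

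Lifr, the chain that binds LIF, fell. The main probe read 4.4% and 3.91% at passage 7, against 8.47% and 10.7% at passage 2, and was well above background on all 4 arrays. The passages did not overlap. The log2 change was -1.20 ± 0.211 (SE), or 2.29-fold lower, at an adjusted p of 0.0219. The other probe read 4.34% and 4.51% at passage 7, against 9.38% and 7.51% at passage 2, and its change of -0.92 was under 2-fold. The call was lost without the first passage 7 array (-1.28, adjusted p = 0.0797), without the second (-1.11, adjusted p = 0.128) and without the second passage 2 array (-1.03, adjusted p = 0.0558). The direction also depended on the processing. With normexp background correction the change was 0.85 (adjusted p = 0.701), and with uneven backgrounds replaced by the array's median it was -0.24 (adjusted p = 0.558). Normexp followed by quantile normalization gave -0.66 (adjusted p = 0.0351). Without a filter on dim probes the change was still -1.20 but the adjusted p was 0.0549.

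**Figure D2:**
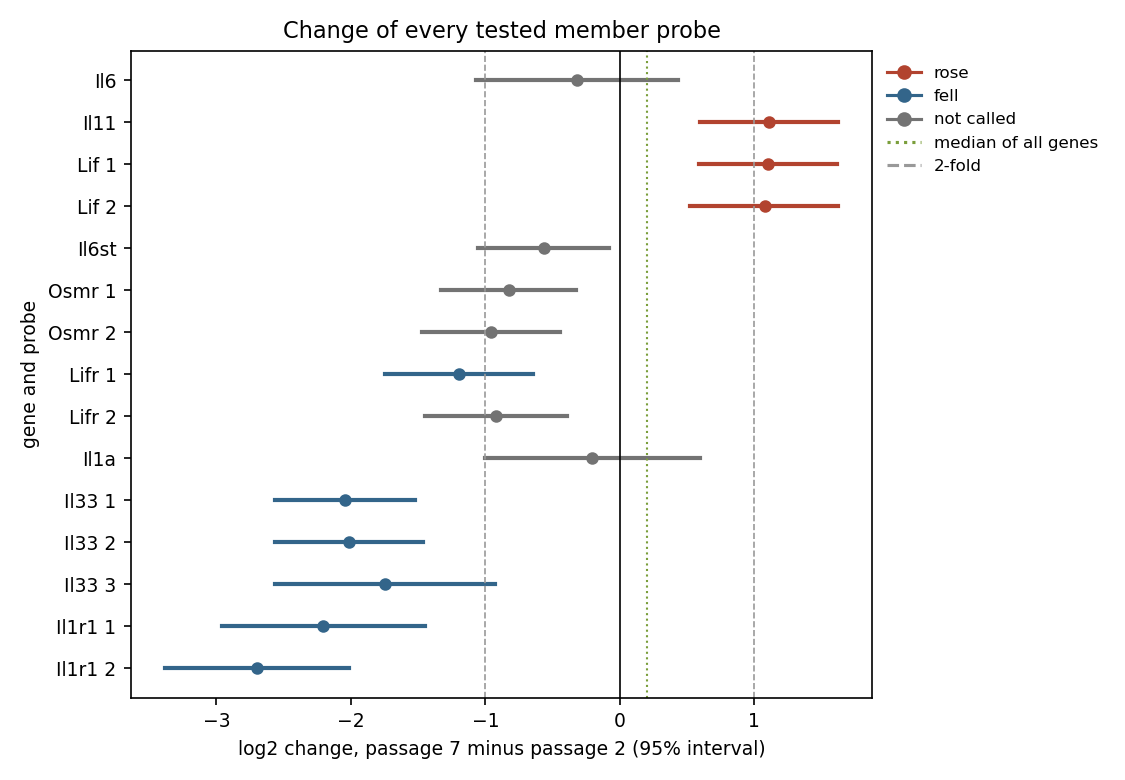
Log2 change, passage 7 minus passage 2, of each of the 15 tested probes of the 10 genes with its 95% interval, from the fit of single probes; dashed lines mark 2-fold and the dotted line the median of all genes. Il33 and Il1r1 lie beyond the 2-fold line on all their probes, Lif and Il11 just beyond it on the other side.

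Il1r1, the signalling receptor for IL-1α and IL-1β, fell on both of its probes. Its change was the largest fall of the 10 genes with all 4 arrays, but Il33 fell more without the first passage 7 array (-2.18 for Il33, -2.08 for Il1r1) and without the second passage 2 array (-1.98 for Il33, -1.86 for Il1r1). The main probe read 51.9% and 61.4% at passage 7, against 205% and 330% at passage 2. The passages stood well apart, although the passage 2 arrays differed from each other more than those of passage 7. The log2 change was -2.20 ± 0.294 (SE), or 4.61-fold lower, at an adjusted p of 0.0126. The other Il1r1 probe read 38.7% and 38.3% at passage 7, against 202% and 310% at passage 2, a log2 change of -2.70. The 2 probes therefore differ by 0.50 in the size of the fall, the widest gap between probes of 1 gene here. Only 2.38% of all genes tested had a lower log2 change than Il1r1.

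Il33, a nuclear cytokine released from damaged cells, fell on all 3 of its probes. The main probe read 5.95% and 4.89% at passage 7, against 21.2% and 23.3% at passage 2. Its log2 change was -2.04 ± 0.199 (SE), or 4.12-fold lower, at an adjusted p of 0.00717. A second probe, at 4.73% and 6.14% at passage 7 and 21.8% and 21.6% at passage 2, gave -2.01. The third, at 2.52% and 3.83% at passage 7 and 8.6% and 12.7% at passage 2, gave -1.75. No probe overlapped between passages, and 2.91% of all genes had a lower log2 change than Il33. Both Il33 and Il1r1 were called whichever array was left out, with log2 changes from -2.18 to -1.90 for Il33 and from -2.55 to -1.86 for Il1r1. The normexp background correction ended both calls, with a change of 0.063 for Il33 (adjusted p = 0.979), which turns its sign, and of -1.91 for Il1r1 (adjusted p = 0.558). With uneven backgrounds replaced by the array's median, Il33 had -0.98 (adjusted p = 0.125) and was not called, and Il1r1 had -2.14 (adjusted p = 0.0193) and was.

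The IL-1 ligands were at the limit of detection. Il1a, which encodes IL-1α, was not well above background on either passage 7 array, at 0.699% and 1.15%, and was above it on both passage 2 arrays, at 1.17% and 0.915%. It entered the test through passage 2 alone and did not pass (adjusted p = 0.648), and the values overlapped. The Il1a changes fitted under other processing, given below, are not read as a difference or a direction. Il1b, which encodes IL-1β, was not well above background on any array (0.145% and 0.317% at passage 7, 0.172% and 0.0989% at passage 2). At this sensitivity neither gene can be said to be absent or unchanged, since the dimmest signal still well above background was 0.714% and 1.57% at passage 7 and 0.705% and 0.473% at passage 2.

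Of the 15 member probes tested one by one, 9 were called: both of Lif, that of Il11, 1 of the 2 of Lifr, all 3 of Il33 and both of Il1r1. Over all 24838 probes tested, 20.5% were called. The probes of a gene share its transcript and are not replicates. For the genes with several probes, every probe had the same sign as the others.

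Genes whose 4 array values ran most like those of Il1r1 and Il33 were found by the smallest Euclidean distance between values centred on each gene's mean, on the log2 scale and over 4 arrays. For Il1r1 they were Olfml2b, at a distance of 0.055 and a log2 change of -2.26, E2f8, a repressor of cell-cycle genes, at 0.103 and -2.28, and Smarca1, a chromatin remodelling ATPase, at 0.158 and -2.15. For Il33 they were Kitl, the KIT ligand, at 0.032 and -2.02, Wdr4 at 0.075 and -2.11, and Dennd3 at 0.082 and -2.08. With 4 arrays in 2 passages, such likeness mainly reflects a fall of the same size.

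The other genes of both pathways were taken from 10 lists. Of their 120 distinct genes tested, members left out, 9 rose, 18 fell and 93 were not called, with a median log2 change of 0.04. Over all 13850 genes tested, 9.99% rose and 9.42% fell, with a median of 0.20, and the counts of each list stand beside that background. When the normexp background correction replaced that of the scanner software none of the listed genes was called. The signs of 7 falls turned, those of Il31ra, Socs4, Socs6, Saa3, Il1r2, Casp1 and Ccl5. These 7 changes stayed negative when quantile normalization followed normexp. Among the other IL-6 family receptor chains 1 of 5 tested genes fell and none rose, with a median of -0.17. The one that fell was the IL-31 receptor chain Il31ra, which pairs with OSMR. Its signal was 0.156% and 0.344% at passage 7, not well above background, against 2.96% and 1.2% at passage 2. It was thus at least 1.78-fold lower, a bound under the 2-fold limit. The adjusted p of 0.0273 belongs to the fitted change of -3.03, which uses the dim signals. Il31ra entered the test through passage 2 alone, and with genes restricted to those well above background on all 4 arrays 0 genes of this list fell. The specific chains did not pass: Il6ra, for IL-6, had a log2 change of -0.38 (adjusted p = 0.349), and Il11ra1, for IL-11, one of 0.62 (adjusted p = 0.0711). The call of Il31ra was lost without the first passage 2 array (adjusted p = 0.0611) and in the authors' deposited value table, where its change was -0.70.

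Within the list of JAK-STAT signalling genes and their inhibitors, 6 of 21 tested genes fell and none rose, with a median of -0.50. Those that fell included SOCS genes, a family with members that are induced by cytokines and restrain their receptors. Socs2 read 17.3% and 19.2% at passage 7, against 121% and 140% at passage 2, a log2 change of -2.84 ± 0.191 (adjusted p = 0.00518). Socs3, the inhibitor that binds gp130, read 235% and 227% at passage 7, against 578% and 523% at passage 2, a log2 change of -1.25 ± 0.179 (adjusted p = 0.0143). Neither gene overlapped between passages. Socs4 had a log2 change of -1.42 (adjusted p = 0.0147). Socs6, not well above background at passage 7, was at least 3.66-fold lower. The adjusted p of 0.0275 belongs to the fitted Socs6 change of -2.98, which uses the dim signals. Socs6 entered the test through passage 2 alone, and 5 genes of the list fell when only genes well above background on all 4 arrays were kept. The other 2 that fell, outside the rule for named genes and named after their values were seen, were the kinase Jak2, at -1.34 ± 0.331 (adjusted p = 0.0465), and the inhibitor Cish, at -1.27 ± 0.222 (adjusted p = 0.0216). The kinase Jak1 and the transcription factor Stat3 did not pass, at -0.69 (adjusted p = 0.148) and -0.43 (adjusted p = 0.134). With either passage 7 array left out, Socs3, Socs4, Jak2 and Cish were not called (adjusted p of at least 0.0748, 0.0616, 0.0777 and 0.0841), Jak2 was not called without the second passage 2 array (adjusted p = 0.0891), and Socs6 was not called without the first passage 2 array (adjusted p = 0.0652).

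Of 19 tested STAT3 target genes 4 fell and none rose, with a median of 0.45, and the list holds Il6st and Osmr. Saa3, an acute-phase protein, read 1.57% and 0.834% at passage 7, against 15% and 6.62% at passage 2 (adjusted p = 0.0192). Only 1 of the 2 passage 7 arrays was well above background for Saa3, so no size is given for its fall, and 3 genes of the list fell and 1 rose when only genes well above background on all 4 arrays were kept. Bcl3, a nuclear IκB-like protein, read 50.1% and 43% at passage 7, against 176% and 151% at passage 2 (-1.81 ± 0.200, adjusted p = 0.00919). The others were Hif1a, at -1.12 (adjusted p = 0.019), and Socs3. For both Saa3 and Bcl3 the passages did not overlap. With either passage 7 array left out Hif1a was not called (adjusted p = 0.103 and 0.115).

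On the IL-1 side, none of 4 tested other ligands and antagonists was called, with the antagonist Il1rn at 0.46 (adjusted p = 0.131). Among 6 tested other receptors 1 fell, Il1r2, the decoy receptor that binds IL-1 without signalling. It read 1.21% and 0.831% at passage 7, against 4.13% and 4.08% at passage 2 (adjusted p = 0.0109), and it missed the fold limit in the authors' deposited value table, at -0.92. Only 1 of the 2 passage 7 arrays was well above background for Il1r2, so no size is given, and 0 genes of the list fell when only genes well above background on all 4 arrays were kept. The accessory chain Il1rap had a change of -1.29 (adjusted p = 0.14). Il1rl1, the IL-33 receptor, read 450% and 433% at passage 7, against 694% and 838% at passage 2, without overlap, and its change of -0.79 ± 0.194 (adjusted p = 0.0466) was under 2-fold. Of 9 tested inflammasome and processing genes only Casp1, the protease that matures IL-1β, was called. It read 1.88% and 3.24% at passage 7, against 7.34% and 7.42% at passage 2 (-1.58 ± 0.309, adjusted p = 0.0273), and was called in 1 of the 4 fits that left out an array (adjusted p up to 0.0912).

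Downstream of the IL-1 receptor, 1 of 25 tested genes rose and 1 fell, with a median of -0.04. Irak2, a kinase of the receptor complex, read 256% and 251% at passage 7, against 85.6% and 124% at passage 2 (1.30 ± 0.247, adjusted p = 0.0258). Nfkb1, the NF-κB subunit made as p105, read 138% and 134% at passage 7, against 295% and 320% at passage 2 (-1.18 ± 0.176, adjusted p = 0.0155). Neither overlapped between passages. The subunit Rela, at 0.69 (adjusted p = 0.065), and the inhibitor Nfkbia, at 0.68 (adjusted p = 0.101), did not pass. Irak2 missed the fold limit in the authors' deposited value table (0.96), and with either passage 7 array left out neither Irak2 nor Nfkb1 was called (adjusted p of at least 0.0925 and 0.0849).

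NF-κB and IL-1 response genes went both ways, with 6 of 27 tested genes higher and 7 lower and a median of -0.18. Lif and Il11 are among the 6. The other leading rises were Ccl20, a chemokine, at 1.50 ± 0.297 (adjusted p = 0.0279), Icam1, an adhesion receptor, at 1.35 ± 0.233 (adjusted p = 0.0212), and the protease Mmp3 at 1.33 ± 0.199 (adjusted p = 0.0156). The largest fall was that of the neutrophil chemokine Cxcl5, at 17.8% and 16.7% at passage 7, against 387% and 403% at passage 2 (-4.52 ± 0.175, adjusted p = 0.00505), and Saa3 and Bcl3, given above, are also among the 7. With either passage 7 array left out Ccl20, Icam1 and Mmp3 were not called (adjusted p of at least 0.0795, 0.0767 and 0.0679), while Cxcl5, Saa3 and Bcl3 were called in all 4 fits that left out an array.

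Of 14 tested genes in the list of AP-1 and C/EBP factors, 3 rose and none fell, with a median of 0.47. Ddit3, the stress-induced C/EBP relative CHOP, read 3170% and 3110% at passage 7, against 960% and 523% at passage 2 (2.15 ± 0.335, adjusted p = 0.017). Atf3, a stress-induced factor that dimerises with Jun proteins, read 193% and 204% at passage 7, against 71.3% and 79.8% at passage 2 (1.40 ± 0.182, adjusted p = 0.0122). Fosl1, the AP-1 subunit Fra-1, read 447% and 396% at passage 7, against 204% and 164% at passage 2 (1.20 ± 0.208, adjusted p = 0.0212). None of the 3 overlapped between passages. Cebpb and Cebpd, the C/EBP factors once named for their part in the IL-6 response, did not pass, at 0.48 (adjusted p = 0.125) and 0.45 (adjusted p = 0.296). With either passage 7 array left out Atf3 and Fosl1 were not called (adjusted p of at least 0.0563 and 0.0879), and Fosl1 was not called without the second passage 2 array (adjusted p = 0.0552).

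**Figure D3:**
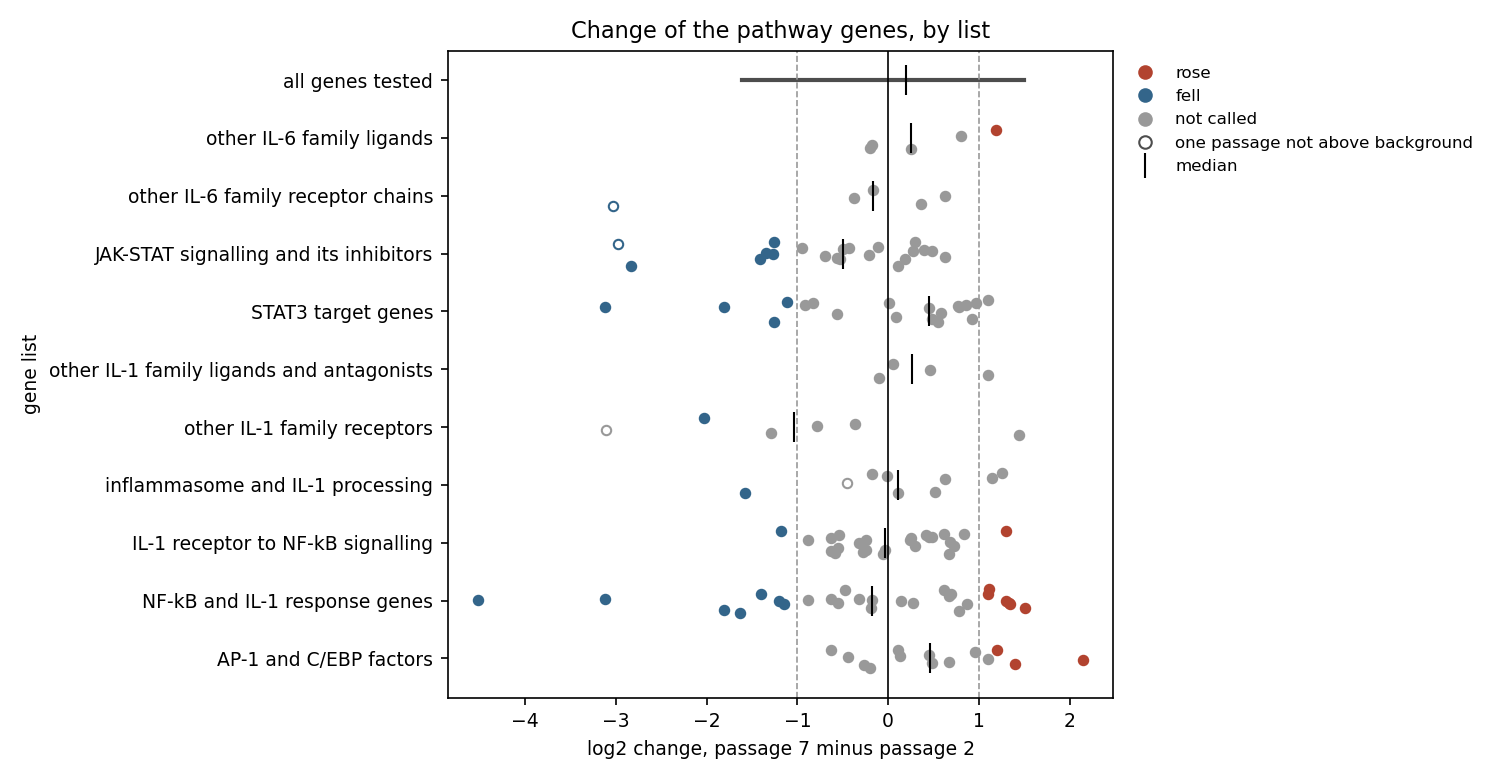
Log2 change, passage 7 minus passage 2, of every tested gene of the 10 pathway lists; bars mark medians, the line at the top spans the 5th to 95th percentile of all genes tested, and open circles are genes that were well above background in only 1 passage, whose fold is only bounded. JAK-STAT genes have 6 falls and no rise, AP-1 and C/EBP factors have 3 rises and no fall, and the NF-κB and IL-1 response genes have calls on both sides.

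The cultures carried fibroblast markers throughout, with all 13 measured well above background on all 4 arrays, though Col6a1, Col6a2, Pdgfra and Lum fell at passage 7. Macrophages make several IL-1 family genes, and of 10 tested macrophage markers 4 passed as lower and none rose. Csf1r and Mrc1 were well above background on all 4 arrays, Adgre1 on 1 of the 2 passage 7 arrays, and Fcgr1 on neither of them, with a bound that leaves no fold for it. The summed level of the 11 measured macrophage markers was 2.1 and 2.39 times the 75th percentile at passage 7, against 4.79 and 3.66 at passage 2, and the leukocyte marker Ptprc was not well above background on any array. These markers moved in the same direction as Il1r1, Il33, Il1r2, Casp1 and Saa3, and their part in those falls was not tested. Keratinocytes also make IL-1 family genes, and of 10 tested keratinocyte markers 2 rose (Ivl and Sfn) and 1 fell (Krt14). Their summed levels were 14.5 and 15.3 at passage 7 and 7.54 and 5.67 at passage 2, mostly from Sfn and Ivl. Sfn read 974% and 1070% at passage 7, against 518% and 422% at passage 2. Ivl read 328% and 256% at passage 7, against 4.55% and 4.88% at passage 2. Of 9 tested endothelial markers 1 rose, of 7 T, NK or mast cell markers 1 fell (Kit), and of 6 trophoblast markers 1 rose and 1 fell (Plac1). Kit and Plac1 were well above background on neither passage 7 array and entered the test through passage 2 alone, so their falls are only bounded. In bulk RNA, fewer cells of a type and less RNA per cell cannot be told apart.

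**Figure D4:**
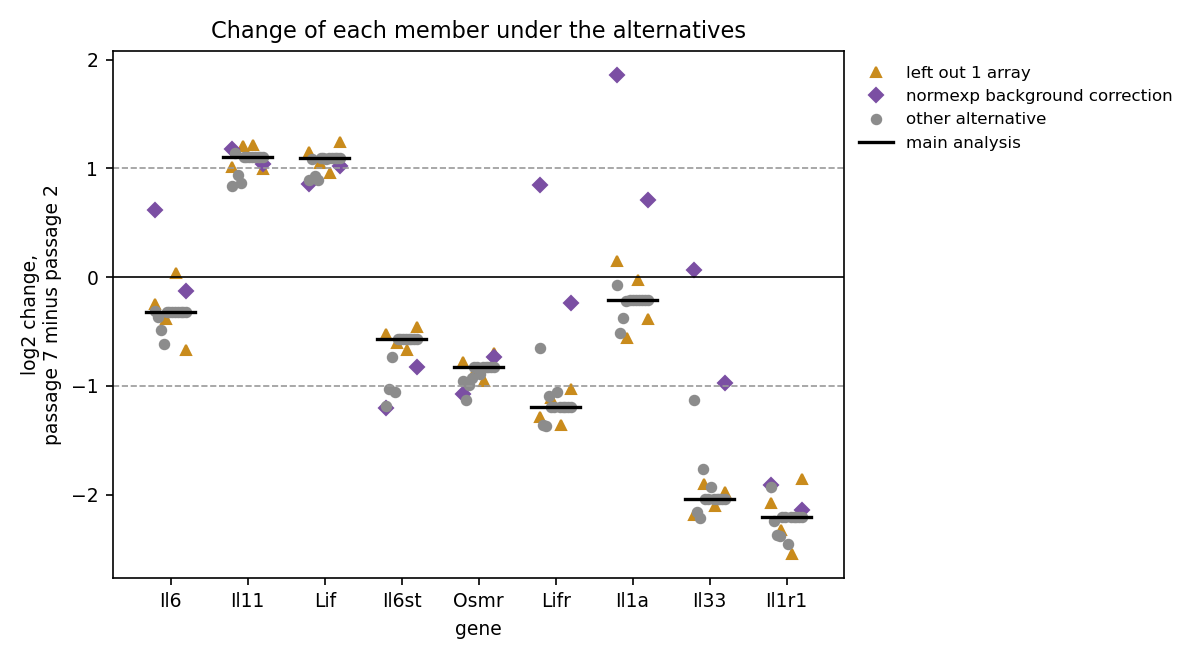
Log2 change, passage 7 minus passage 2, of each of the 9 tested genes in the main analysis (black bars) and under the alternatives (symbols), with dashed lines at 2-fold. Il1r1 stays below the lower line throughout, and Lif and Il11 lie around the upper line. The normexp background correction in its first form turns the sign of Il6, Lifr and Il33. No direction is read for Il1a, which was at the limit of detection.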

How the data were processed

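Total RNA of mouse embryonic fibroblasts at passages 7 and 2 was labelled with Cy3 and hybridised to custom Agilent arrays, 2 per passage, per the labels' protocols. Per the file headers, Agilent Feature Extraction 10.5.1.1 made the deposited spot files, which hold intensity values: a background-subtracted processed signal, the median spot and background intensity, and flags for outliers and for signal well above background. The authors' deposited value table is on a log2 scale close to the log2 median intensity (correlation of at least 0.9986), with column medians of 6.24 and 6.14 at passage 7 and 6.3 and 6.3 at passage 2; its centring and background treatment are not given in the sources used here. The submitters' processing notes name limma.

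Here, the processed signal was put on a log2 scale and each array's 75th percentile over non-control spots was subtracted. Outlier spots (14 to 61 per array) were left out and spots of a probe averaged. The probe with the highest mean stood for a gene, and genes well above background on both arrays of a passage entered the fit (R 4.3.3, limma 3.58.1, lmFit and eBayes, two-sided, with Benjamini-Hochberg adjustment). A bound ("at least") sets the bright passage against, per array of the dim one, the detection limit or the probe's own signal if higher, the limit being the dimmest signal well above background. Accessions were matched to RefSeq symbols (31089 of 43553 probes). The array was designed on another genome build than the tables, so only promoter windows carry coordinates. The percentile used for scaling was 964 and 402 at passage 7 and 1024 and 1404 at passage 2, and 70.6%, 65.8%, 71.9% and 72.7% of their spots, in that order, were well above background. No spot was saturated. Arrays of a passage correlated at 0.9923 (passage 7) and 0.9849 (passage 2) over genes. Having only 2 arrays per passage limits the precision, and an exact permutation test of 2 against 2 cannot go below p = 0.333.

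Of the pathway lists, up to 3 rises and 3 falls with the largest change were named, together with 14 receptor, kinase and factor genes whatever their values. The result of 1 gene that this rule takes is not reported here. The members and lists were chosen with earlier results of these data known. Alternatives covered background correction, normalization, the authors' table, filters, the choice of probe, the variance model, a replicate block and leaving out each array; 1 background correction and 1 crossed block were added after the data were seen. The fit was tested on simulated data.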

Additional observations from a re-analysis of the deposited data

How the results depend on the processing

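Calls near the limits depended on the processing, and the signs of Il6, Lifr and Il33 on the background correction. With normexp background correction of the median intensities no gene was called (0, with 661 at an unadjusted p under 0.05), 0 members rose, 0 fell and 0 listed genes changed. The log2 changes were then 0.62 for Il6, 0.85 for Lifr and 0.063 for Il33, which reverses their signs. Those of Il11, at 1.18, Lif, at 0.85, and Il1r1, at -1.91, kept their sign without a call (adjusted p = 0.558 for Il1r1). The fitted value was 1.86 for Il1a, and no direction is read from it, since Il1a was at the limit of detection. With the median background of the array put in place of uneven ones, an alternative added after seeing the data, 1231 genes changed. In that fit 0 members rose, 1 fell and 11 listed genes changed. The log2 changes were 1.04 for Il11, 1.02 for Lif, -0.24 for Lifr and -0.98 for Il33. The fitted value was 0.71 for Il1a, again with no direction read. Normexp with quantile normalization gave 1276 genes, 0 members that rose, 3 that fell and 11 listed genes. Il6st at -1.19, Il33 at -1.13 and Il1r1 at -1.93 were called. Il11 had 0.84, Lif 0.89 and Lifr -0.66. Quantile normalization alone gave 5 members that fell, with Il6st at -1.03 and Osmr at -1.13 now called. Median scaling gave 0.94 for Il11, 0.93 for Lif and 0 members that rose, and the authors' table gave 0 members that rose, 0.87 for Il11, 0.90 for Lif and -1.05 for Il6st. Without a filter on dim probes 1771 genes and 14 listed genes changed and 0 members rose, with Il11 at 1.11 (adjusted p = 0.0562), Lif at 1.099 (0.0565) and Lifr at -1.20 (0.0549). Single probes gave 5100 calls. The causes were not tested.

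Replicate numbers did not pair the arrays (correlation of deviations -0.168). The replicate block gave 1173 genes, 8 listed genes and 0 members that rose, with Il11 at 1.11 (adjusted p = 0.0645), Lif at 1.099 (0.0674) and Lifr at -1.20 (0.0714) no longer called. The crossed replicate block, added after seeing the data, gave 3067 genes.

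Leaving out 1 array gave 1152 to 3457 genes (the lowest without the second passage 7 array, the highest without the first passage 2 array), 0 to 1 members that rose, 2 to 3 that fell and 9 to 33 listed genes, against 2689, 2, 3 and 27. Changes ran from -0.67 to 0.038 for Il6, 0.996 to 1.22 for Il11, 0.96 to 1.24 for Lif and -1.36 to -1.03 for Lifr. Fitted values ran from -0.56 to 0.15 for Il1a, with no direction read. A lone array was assumed to vary like those of the other passage. Of all calls 51.5% were rises, against 41.2% with median scaling and 36.2% in the authors' table, and the median change of all genes was 0.20, against 0.03 and -0.06. Under every alternative run, Il1r1 kept its fall and Lif and Il11 their rise, in sign. Il6st and Osmr, not called in the main fit, also kept their negative sign throughout.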
